A study of Mus musculus with 12 samples.

Results

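Potassium channels are membrane proteins that let potassium ions cross the cell membrane, and they set the resting potential and end electrical signals. The voltage-gated families (Kcna, Kcnb, Kcnc, Kcnd, Kcnh, Kcnq) open when the membrane depolarizes, the Kcnf, Kcng, Kcns and Kcnv genes encode silent subunits that modify Kcnb channels, the Kcnj genes encode inward rectifiers, the Kcnk genes encode background (leak) channels, and the Kcnn and Kcnt genes encode channels gated by calcium and by sodium. In the cerebellum these channels shape the firing of neurons and the potassium uptake of glia, and in macrophages and microglia potassium efflux through them is a known trigger of inflammasome activation. The genes described here are the pore-forming subunit genes of these families, taken by gene symbol: 73 of the 54547 genes of the table, in 14 subfamilies. The largest subfamilies were Kcnk with 14 genes and Kcnj with 13 genes, and 2 inward rectifier genes are not analysed here.

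The transcriptomes of 2 cell populations isolated from mouse brain were sequenced, giving 4 groups with 3 libraries each. All mice were of a 129;C57BL/6 mix and carried Msi1-CreER, a tamoxifen-inducible Cre recombinase named for the gene Msi1 of neural stem and progenitor cells. RasV12 mice (Msi1-CreER;RasV12) carried an oncogenic form of Ras, and both their GFP+ cells and their CD11b+ phagocytes came from tumor. Control mice (Msi1-CreER;GFP) carried a GFP gene in its place, and the same 2 populations came from cerebellum, so that genotype and tissue cannot be told apart. The sources used here give neither age nor treatment schedule. Whether the replicates are different animals is not stated, and p-values may therefore reflect technical spread alone.

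The libraries held 18519240 to 32624399 reads in control GFP+ cells, 21227344 to 34432725 in RasV12 GFP+ cells and 7883870 to 34601205 in control CD11b+ cells. RasV12 CD11b+ libraries 1 and 2 held 3642570 and 2951629 reads and library 3 held 23589310. Mitochondrially encoded genes took 20.1 to 30.4% of normalized counts in control GFP+ and 1.53 to 2.62% in RasV12 GFP+ libraries. In CD11b+ cells they took 0.63 to 2.54% in control and 13.3 to 17.7% in RasV12 libraries. The part of these differences in the results was not tested. The CD11b+ sort was checked by its marker: Itgam, the gene of CD11b, averaged 5117 and 1936 normalized counts in control and RasV12 CD11b+ cells, 0 in control GFP+ cells and 0.17 in RasV12 GFP+ cells. As a measure of background, the FPKM of 1111 olfactory receptor genes, which are characteristic of olfactory sensory neurons, was taken in each library. Their 95th percentile was 0.25 to 1.4 FPKM in the 6 GFP+ libraries and 1.4 in control CD11b+ libraries 1 and 3, but 11.5 in control CD11b+ library 2 and 18.35 to 28.95 in RasV12 CD11b+ libraries. Values of channel genes in these 4 libraries are therefore given beside those of the receptor genes, and the part of background in them was not tested beyond the subtraction reported below. FPKM is used for levels between genes, since it is per transcript length, and normalized counts for comparisons of a gene between groups.

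At least 1 read was found for 41 to 49 of the 73 channel genes in control GFP+ libraries and for 53 to 64 in the others. The number above the receptor genes of the same library was highest in control GFP+ cells. In them 34, 34 and 30 of the 73 genes stood above the 95th percentile of the receptor genes in libraries 1, 2 and 3. The numbers were 18, 23 and 28 in RasV12 GFP+ cells, 7, 1 and 9 in control CD11b+ cells and 0, 0 and 1 in RasV12 CD11b+ cells. In at least 2 of 3 libraries, 30, 23, 6 and 0 genes did so, in the same order of groups. The percentile itself lay between 0.25 and 28.95 FPKM in the 12 libraries, and its part in these numbers was not tested. The share of all genes above it was not taken, so that the order of groups cannot be read as particular to channel genes. The summed FPKM of the channel genes was 239.6 to 296.2 in control GFP+ and 159.7 to 258.2 in RasV12 CD11b+ libraries. Since these are bulk samples, fewer cells of a type and less RNA per cell cannot be told apart either.

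**Figure D1:**
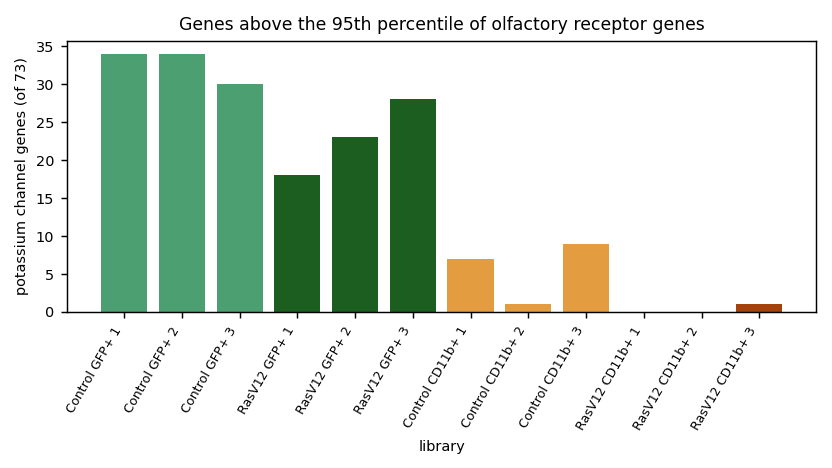
Number of potassium channel genes, of 73, whose FPKM was above the 95th percentile of the olfactory receptor genes in each of the 12 libraries (bars, 1 per library). Control GFP+ libraries stand at 30 to 34 genes, RasV12 GFP+ libraries at 18 to 28, control CD11b+ libraries at 1 to 9 and RasV12 CD11b+ libraries at 0 or 1. The percentile differs between libraries, and the share of all genes above it was not taken.

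The subfamilies took different shares of the summed channel FPKM in each group. In control GFP+ cells Kcnk genes made up 42.8%, Kcnj genes 14.9% and Kcna genes 14.5%. Kcnk1, a weakly conducting leak channel of neurons and glia, led with a mean of 84.5 FPKM, 30.7% of the sum, followed by Kcna1 with 24.3, the silent subunit gene Kcng4 with 20.5 and the inward rectifier gene Kcnj16 with 19.3. In RasV12 GFP+ cells Kcnk genes made up 31.6%, Kcnn genes 13.6%, Kcnj genes 11.8% and Kcnd genes 11.7%. Kcnk1 again had the highest mean, 41.7 FPKM, before Kcnd3 with 18.9, the small-conductance calcium-activated channel gene Kcnn2 with 18.7 and the silent subunit gene Kcnf1 with 10.6. The 3 RasV12 libraries were far apart for Kcnk1, with 6.5, 91.4 and 27.1 FPKM against 85.8, 80.2 and 87.4 in control GFP+ cells, so that the groups overlapped.

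In control CD11b+ cells Kcnk genes made up 65.3% of the summed FPKM, and Kcnk6 and Kcnk13 alone made up 40.6% and 18.0%. No subfamily led by such a margin in RasV12 CD11b+ cells, where Kcnj genes made up 18.5%, Kcnh genes 18.4% and Kcnk genes 17.2%. There the highest means, 15 FPKM for Kcnh8, 14.9 for Kcnk6 and 14.0 for Kcnc2, lay under the receptor genes' 95th percentile in all 3 libraries for Kcnk6 and Kcnc2 and in libraries 1 and 2 for Kcnh8. Kcnk15 had no read in any of the 12 libraries.

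**Figure D2:**
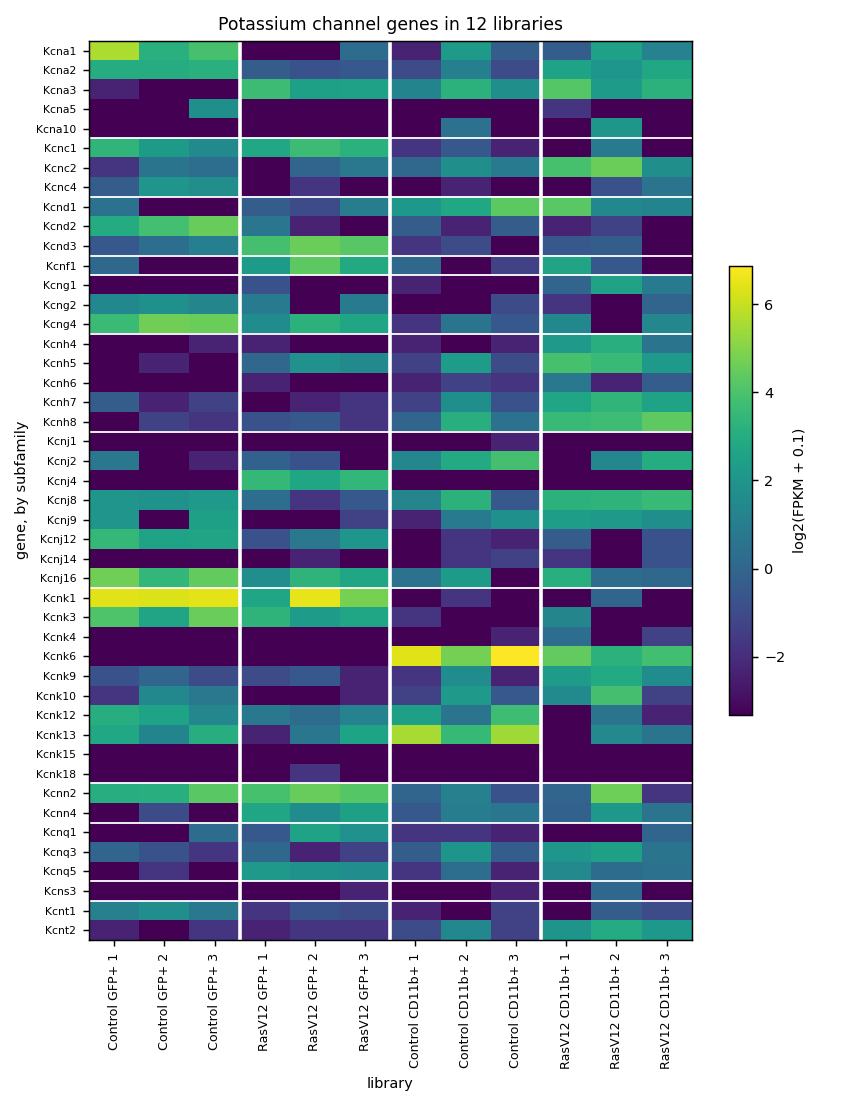
Level of the 46 potassium channel genes named in the text (rows, by subfamily) in the 12 libraries (columns) as log2(FPKM + 0.1), from dark (no read) to yellow (high). Kcnk1 is brightest in control GFP+ columns and Kcnk6 in control CD11b+ columns, while Kcnj4 is lit in the 3 RasV12 GFP+ columns.

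The first comparison asks how GFP+ cells of RasV12 tumors differ from GFP+ cells of control cerebellum. Of the 73 genes 65 reached 10 normalized counts in at least 3 libraries and were tested. The other 8 were Kcna5, Kcna10, Kcnj1, Kcnj14, Kcnk4, Kcnk15, Kcnk18 and Kcns3. In RasV12 GFP+ cells 5 genes rose (Kcnj4, Kcna3, Kcnq5, Kcnn4 and Kcnh5), 3 fell (Kcna2, Kcna1 and Kcnd2) and 57 did not pass, by limma with Benjamini-Hochberg adjustment over all 29835 genes tested. That is 12.3% of the tested channel genes, where 6.79% of all genes tested were called (4.14% higher and 2.65% lower). The 5 genes that rose belong to 5 subfamilies, and within the Kcna subfamily 1 gene rose and 2 fell.

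**Figure D3:**
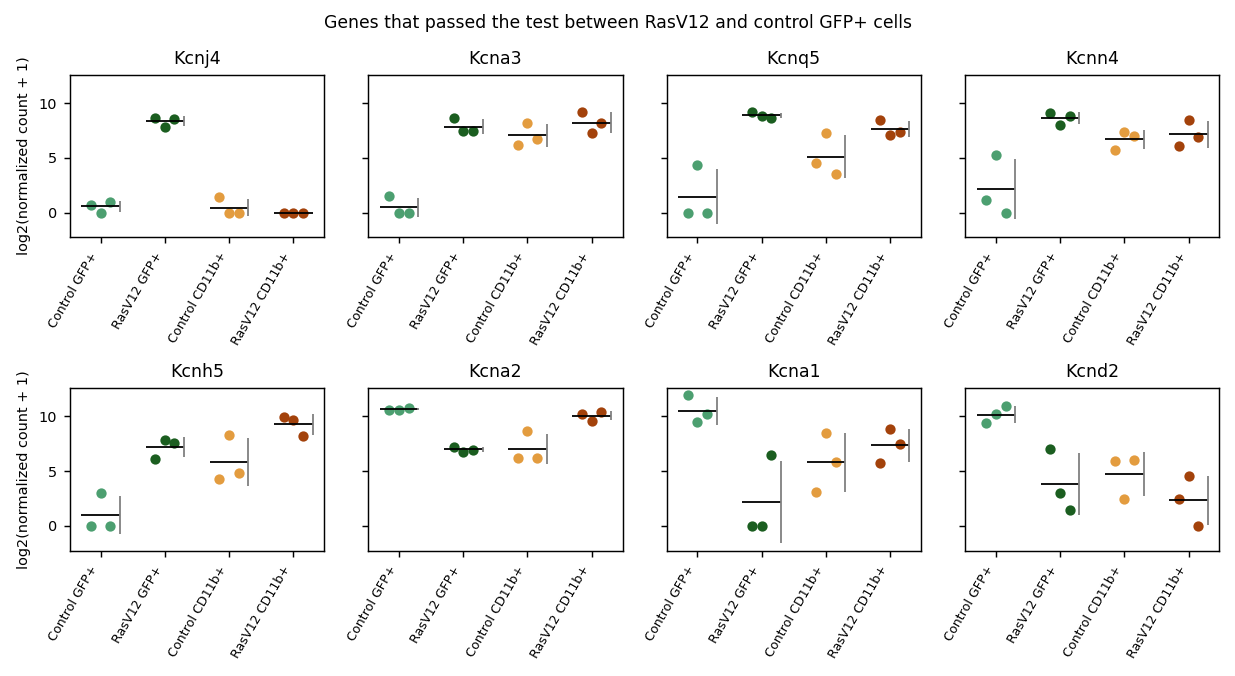
The 8 genes that passed the test between RasV12 and control GFP+ cells, as log2(normalized count + 1) in each library (points) of the 4 groups, with group means (black lines) and SD (grey lines, n = 3). Kcnj4 is at or near 0 in all but the RasV12 GFP+ libraries, whereas Kcna2 stands within a narrow range in both GFP+ groups.

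Kcnj4 encodes an inward rectifier that holds the membrane near the potassium equilibrium potential and lies on chromosome 15 (79483714 to 79505241, GRCm38). It had 391.5, 225.9 and 383.8 normalized counts in RasV12 GFP+ libraries and 0.6, 0.0 and 1.0 in control GFP+ libraries. Neither CD11b+ group carried it: control CD11b+ libraries had 1.6, 0.0 and 0.0, and RasV12 CD11b+ libraries had no read. All 3 RasV12 GFP+ libraries were thus above all 9 others. The log2 fold change was 7.78 ± 1.01 (SE, adjusted p = 0.000626), and the ratio of reads pooled over the groups, adjusted for depth, was 676 with a 95% counting interval of 187 to 5586, which covers counting error only.

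Kcna3 encodes a delayed rectifier best known from lymphocytes and activated microglia. It had 400.6, 175.4 and 177.4 normalized counts in RasV12 GFP+ libraries and 1.8, 0.0 and 0.0 in control GFP+ libraries, and the groups did not overlap (log2 fold change 7.37 ± 0.99, adjusted p = 0.000808, ratio of pooled reads 326 with an interval of 111 to 1583). Microglia and macrophage markers moved with it to a small extent. Their summed FPKM was 8.5 to 46.5 in control GFP+ and 55.1 to 92.5 in RasV12 GFP+ libraries, against 7681 to 23757 in control CD11b+ libraries, and 2 of 14 tested markers rose, Cd68 and Mrc1. Unread among the listed markers were Itgam, Csf1r, Aif1 and Fcrls in control and Tmem119 in RasV12 GFP+ cells. Trem2 was unread in both, but also in control CD11b+ cells. The FPKM of Kcna3 itself was 12.6, 5.5 and 5.6 in RasV12 GFP+ libraries and 2.3, 9.3 and 3.3 in control CD11b+ libraries. The part of phagocyte RNA in the Kcna3 values of GFP+ cells was not tested.

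Kcna2, a delayed rectifier of axons and basket cell terminals, went the other way. It had 1572.1, 1575.9 and 1768.1 normalized counts in control GFP+ libraries and 147.2, 108.3 and 124.8 in RasV12 GFP+ libraries, a log2 fold change of -3.69 ± 0.69 (adjusted p = 0.00584, 12.9-fold lower). Kcna1, its partner in axonal channels, had 3938.8, 700.9 and 1177.1 in control GFP+ libraries, no read in RasV12 libraries 1 and 2 and 90.5 in library 3 (log2 fold change -8.36 ± 1.75, adjusted p = 0.0115). Without RasV12 GFP+ library 1 or 2 the adjusted p of Kcna1 was 0.0605 and 0.0565. Kcna1 did not pass with edgeR (adjusted p = 0.0997) or when only GFP+ libraries were fitted (0.0726). It passed with DESeq2 (0.00798) and after quantile normalization (0.0315).

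Kcna3 and Kcna2 are neighbours on chromosome 3, at 107036169 to 107038070 and 107101146 to 107115005, with 63.1 kb between them, so that 1 gene of this pair rose and the other fell in the same cells. Kcna10, the third of the cluster and 68.0 kb further on, was too low to be tested. The 250 bases before the RefSeq start of each neighbour, and of Kcnj4 as the gene with the smallest adjusted p, are shown to set the promoters of genes that moved in opposite directions side by side (GRCm38.p6, RefSeq, strand of the gene, CG dinucleotides in capitals). The Kcna2 window starts from a RefSeq start that lies inside the gene as the GENCODE annotation draws it.
Kcna3, chr3:107035912-107036161 (+): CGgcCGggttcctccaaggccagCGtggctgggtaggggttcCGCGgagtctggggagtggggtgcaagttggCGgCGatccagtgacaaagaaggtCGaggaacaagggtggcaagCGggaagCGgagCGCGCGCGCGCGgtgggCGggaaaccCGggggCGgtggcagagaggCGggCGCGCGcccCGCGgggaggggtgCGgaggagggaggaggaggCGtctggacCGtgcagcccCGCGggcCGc
Kcna2, chr3:107101317-107101566 (+): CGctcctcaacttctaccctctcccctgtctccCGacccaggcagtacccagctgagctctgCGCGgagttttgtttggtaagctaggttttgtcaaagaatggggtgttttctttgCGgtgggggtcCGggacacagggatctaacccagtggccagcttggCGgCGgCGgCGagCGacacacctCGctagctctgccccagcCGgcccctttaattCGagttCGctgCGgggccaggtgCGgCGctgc
Kcnj4, chr15:79505242-79505491 (-): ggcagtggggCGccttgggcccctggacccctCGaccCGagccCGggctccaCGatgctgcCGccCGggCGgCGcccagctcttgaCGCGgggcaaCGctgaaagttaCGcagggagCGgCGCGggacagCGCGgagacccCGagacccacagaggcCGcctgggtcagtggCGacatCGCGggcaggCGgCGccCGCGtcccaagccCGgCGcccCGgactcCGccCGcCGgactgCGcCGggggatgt

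These stretches hold 31, 18 and 35 CG dinucleotides, and with the 50 bases after the start, in windows of 300 bases, the numbers are 37, 31 and 41. Over such windows the median was 10 for 65 windows of 51 channel genes and 7 for all 32851 windows. The AP-1 motif TGANTCA, which reads the same on both strands, was searched because AP-1 is a known output of Ras signalling. It occurred in 7.81% of all windows, in 1 of the 65 channel gene windows and in 0 windows of the 7 genes with a window among the 8 that passed in GFP+ cells. Absence of these letters says nothing of other positions.

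Kcnq5, a subunit of the slow M-type current, had 574.0, 456.3 and 403.1 normalized counts in RasV12 GFP+ libraries and 0.0, 19.2 and 0.0 in control GFP+ libraries (log2 fold change 7.44 ± 1.32, adjusted p = 0.00435). Kcnn4, the intermediate-conductance calcium-activated channel, which in other cells takes part in migration and proliferation, had 549.6, 256.2 and 459.9 against 1.2, 36.9 and 0.0 (6.53 ± 1.27, adjusted p = 0.00774). Kcnh5, a channel of the ether-a-go-go family, had 69.1, 236.2 and 186.7 against 0.0, 7.2 and 0.0 (6.18 ± 1.28, adjusted p = 0.0106). For each of the 3 genes the lowest RasV12 library was above the highest control library, and the control reads came mostly from control GFP+ library 2. Exons of Kcnq5 overlap the predicted gene Gm26580 by 237 bases, and without strand their reads cannot be told apart. Without RasV12 GFP+ library 2 the adjusted p of Kcnh5 was 0.0539. With edgeR none of the 3 genes passed (adjusted p = 0.0618 for Kcnq5, 0.0843 for Kcnn4 and 0.0639 for Kcnh5), and with DESeq2 each did. After quantile normalization Kcnq5 passed (adjusted p = 0.0272) and Kcnn4 and Kcnh5 did not (0.0742 and 0.0917).

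The A-type channels of the Kcnd subfamily, which delay firing and open at low voltages, come from Kcnd1, Kcnd2 and Kcnd3. Kcnd2 had 661.6, 1207.8 and 1943.1 normalized counts in control GFP+ libraries and 127.8, 6.9 and 1.8 in RasV12 GFP+ libraries (log2 fold change -6.35 ± 1.6, adjusted p = 0.0292). The call of Kcnd2 was lost without any 1 of the 3 control libraries or without RasV12 library 2 or 3 (adjusted p = 0.0532 to 0.122). Kcnd2 did not pass with edgeR (adjusted p = 0.107), after quantile normalization (0.0838) or when only GFP+ libraries were fitted (0.0694). It passed with DESeq2 (0.0119), and in all its call was lost in 9 of 17 alternatives. Kcnd3 had 93.8, 194.1 and 327.6 against 2316.7, 3828.1 and 2945.9, with no overlap and a 14.8-fold higher mean in RasV12 cells, but did not pass (log2 fold change 4.02 ± 1.52, adjusted p = 0.150). It passed when only GFP+ libraries were fitted (adjusted p = 0.0161), with DESeq2 on the reads recovered from the deposited values (adjusted p = 0.0157) and after background subtraction (adjusted p = 0.00766). Kcnd3 did not pass with edgeR (adjusted p = 0.0796), with the replicate block (0.130), after quantile normalization (0.139) or after upper-quartile rescaling (0.0739). The silent subunit gene Kcnf1 had 366.2, 1590.2 and 578.7 against 76.6, 0.0 and 0.0 and did not pass either (7.35 ± 2.30, adjusted p = 0.0762).

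Beside the genes that passed, others had groups that did not overlap. Libraries of the groups did not overlap for 8 genes on the higher and 15 on the lower side, against 17.2% and 10.9% of all genes tested (28.2% in all). The 15 lower genes included the 3 that fell and, with adjusted p = 0.0707 to 0.644, Kcnc4, Kcnk10, Kcnj8, Kcnj12, Kcnt1, Kcng2, Kcnk12, Kcnj16 and Kcng4. Kcng4, for example, had 771.5, 1598.4 and 1538.2 normalized counts in control and 191.9, 584.1 and 412.4 in RasV12 libraries (adjusted p = 0.644). The median log2 fold change of the 65 genes was -0.43, where that of all genes tested was 0.56. After upper-quartile rescaling these medians were -0.14 and 0.91 and after quantile normalization -1.03 and -0.12, and the 5 higher and 3 lower calls became 3 and 3 under quantile normalization. The median SE of the channel genes was 1.6 on the log2 scale, which limits the size of change that could be seen.

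Background subtraction kept the direction of all 8 genes, and 2 of the 8 then passed, Kcnj4 (log2 fold change 8.31, adjusted p = 2.24e-05) and Kcnq5 (7.86, adjusted p = 0.000575). The others had log2 fold changes at least as large as before, of 7.83 for Kcna3 (adjusted p = 0.0541), -4.16 for Kcna2 (0.384), -8.41 for Kcna1 (0.0650), -7.92 for Kcnd2 (0.0614), 6.97 for Kcnn4 (0.0733) and 6.86 for Kcnh5 (0.0788). In that fit Kcnd3 passed as higher and Kcnc4 was among those that passed as lower.

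Genes that work with these channels were counted as whole lists. Of 22 tested genes for partner subunits, 2 rose and 5 fell (median log2 fold change -1.57). Kcne3, a single-span partner of voltage-gated channels, had 784.4, 433.9 and 279.7 normalized counts in RasV12 GFP+ libraries and 3.0, 0.8 and 0.0 in control GFP+ libraries (7.89 ± 1.84, adjusted p = 0.0202). Lrrc55, a partner of large-conductance channels, rose from no read to 98.0, 78.0 and 19.7 (adjusted p = 0.0295). Those that fell were the A-type channel partners Dpp6, Kcnip4 and Kcnip2, the Kcna partner Kcnab2 and Kcnmb1, a partner of large-conductance channels. Dpp6 had 1252.6, 1192.5 and 736.5 in control and 47.9, 13.8 and 17.2 in RasV12 libraries (-5.45 ± 0.86, adjusted p = 0.00212), and Kcnab2 had 1127.8, 846.9 and 699.9 against 8.6, 36.7 and 50.8 (-5.04 ± 0.81, adjusted p = 0.00251). Of 15 potassium transporters and cation channels 3 fell, among them the pacemaker channel gene Hcn2 and the chloride and potassium cotransporter gene Slc12a5. Of 23 voltage-gated sodium and calcium channel genes 1 rose (Scn3b) and 1 fell (Cacnb4).

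Neuron and glia markers moved with the genes that fell, and their part in these results was not tested. Of 16 neuron markers 9 fell, with a summed FPKM of 2112 to 2340 in control and 58.4 to 77.7 in RasV12 GFP+ libraries. Of 11 astrocyte and Bergmann glia markers 4 fell (4546 to 5375 against 416.7 to 887.2), and of 10 oligodendrocyte markers 9 fell (6200 to 7592 against 36.1 to 70.4). Erythroid markers were at 707.7 to 60602 in control and 6.6 to 37.5 in RasV12 libraries, and 5 of 6 fell.

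The second comparison sets CD11b+ phagocytes of control cerebellum against GFP+ cells of the same tissue. In the phagocytes 8 of the 65 channel genes were higher (Kcnk6, Kcna3, Kcnd1, Kcnh5, Kcnn4, Kcnh8, Kcnh6 and Kcnt2) and 12 lower, where 26.2% of all genes tested were called (19.3% higher and 6.91% lower). The split of 8 and 12 became 12 and 12 after upper-quartile rescaling and 3 and 14 after quantile normalization. After background subtraction 3 were higher (Kcnk6, Kcna3 and Kcnh8) and 15 lower. The median log2 fold change was 0.13 for the channel genes and 1.80 for all genes tested. For the olfactory receptor genes it was 3.71, with 224 of 738 higher and 1 lower. Libraries of the groups did not overlap for 13 channel genes on the higher and 16 on the lower side, against 32.9% and 12.7% of all genes tested (45.6% in all).

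Kcnk6, a leak channel that is a known potassium efflux path in macrophage inflammasome activation, had the largest log2 fold change of the 65. It had 5714.5, 1833.6 and 8114.5 normalized counts in control CD11b+ libraries and 0.6, 0.0 and 0.0 in control GFP+ libraries (log2 fold change 11.88 ± 0.95, adjusted p = 6.98e-06). RasV12 GFP+ libraries had 0.0, 0.0 and 0.4, so that no GFP+ library reached 1 normalized count. Kcna3 had 72.9, 296.4 and 104.2 in control CD11b+ libraries (6.55 ± 0.99, adjusted p = 0.000670), and Kcnd1, an A-type channel gene, had 372.3, 598.7 and 1722.2 against 114.0, 0.0 and 0.0 in control GFP+ libraries (7.23 ± 1.62, adjusted p = 0.00682).

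Another pair of leak channel genes and an inward rectifier gene were read in phagocytes without a call against GFP+ cells. Kcnk13, a leak channel that sets the resting potential and surveillance of microglia, had 2409.7, 586.7 and 2198.0 normalized counts in control CD11b+ libraries and 344.5, 121.9 and 422.2 in control GFP+ libraries, with no overlap but an adjusted p of 0.276. Kcnk12, its close relative, had 178.7, 46.4 and 424.2 against 262.5, 190.1 and 80.4. Kcnj2, a strong inward rectifier, had 237.5, 673.6 and 1301.5 against 144.3, 0.0 and 9.2 (5.70 ± 2.42, adjusted p = 0.0934). Kcnk13 and Kcnk12 were named after their values were seen. These 3 genes with Kcnk6, Kcnd1 and Kcna3 are the 6 that stood above the receptor genes' 95th percentile in at least 2 control CD11b+ libraries. Kcnk6 did so in all 3 and the other 5 in libraries 1 and 3.

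The 12 lower genes included Kcnk1, Kcnk3, Kcna2, Kcnc4, Kcnd2, Kcng2, Kcng4, Kcnj12, Kcnj16 and Kcnt1. Kcnk1 had 0.0, 7.5 and 0.0 normalized counts in control CD11b+ libraries and 3195.8, 2989.0 and 3255.5 in control GFP+ libraries (-10.59 ± 1.47, adjusted p = 0.000372). Kcnk3, an acid-sensitive leak channel, had 10.2, 0.0 and 1.7 against 1091.0, 405.0 and 1558.5 (-8.15 ± 1.70, adjusted p = 0.00466). Neither gene's groups overlapped. Without control CD11b+ library 2 the number of channel genes called in this comparison was 11, and over all 6 single-library omissions it was 11 to 15. Of all genes tested 5160 were called without that library and 5160 to 6491 over the 6 omissions, against 7826 with all libraries.

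**Figure D4:**
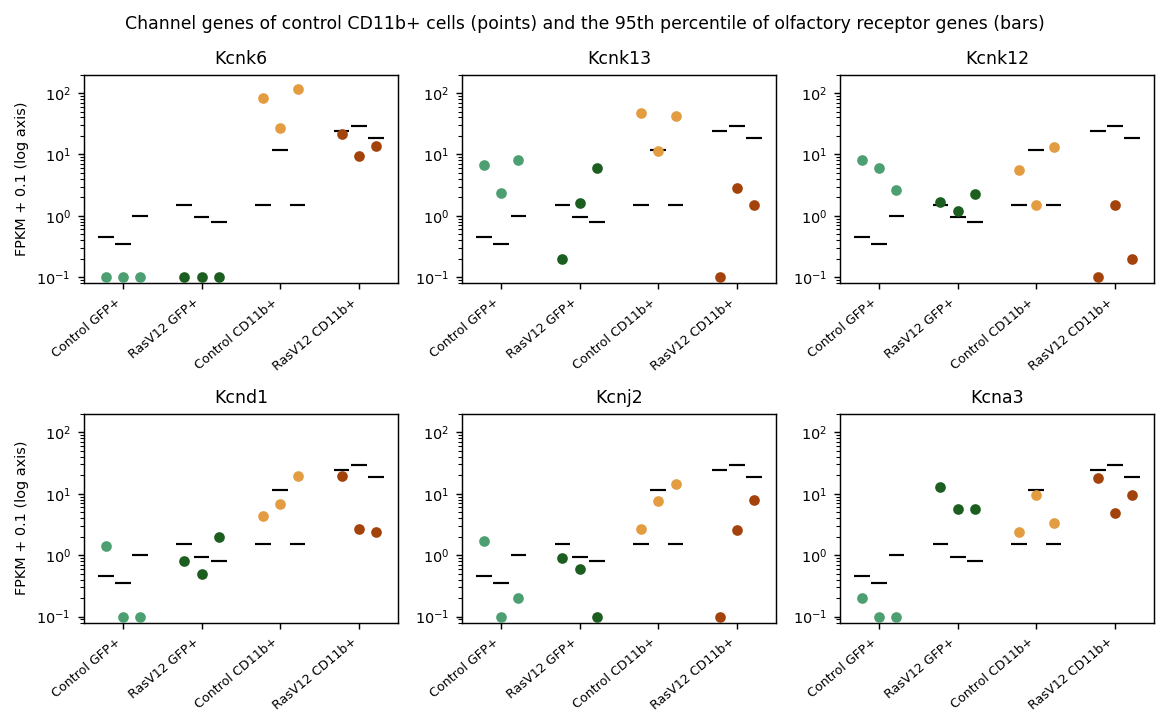
FPKM + 0.1 (log axis) of the 6 channel genes above the receptor genes' 95th percentile in at least 2 control CD11b+ libraries, in each library (points) of the 4 groups, with that percentile of the same library (black bars). Kcnk6 is above the bar in 3 control CD11b+ libraries and Kcnk13 in 2, and every RasV12 CD11b+ point of the 6 genes lies below its bar.

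The third comparison asks how phagocytes of RasV12 tumors differ from those of control cerebellum. By limma 4 of the 65 channel genes rose, among them Kcna2, Kcng1 and Kcnh4, none fell and 61 did not pass, a share of 6.15% where 5.36% of all genes tested were called (2.97% higher and 2.39% lower). An unadjusted p under 0.05 was reached by 17 of the 65 by limma. The share of all genes at that threshold was not taken, so that this number cannot be read as particular to channel genes. Of other tools edgeR called none lower and DESeq2 called 4 lower, where they called 434 and 2357 of all genes in either direction. Libraries did not overlap for 15 genes on the higher and 4 on the lower side, against 19.0% and 8.59% of all genes tested (27.6% in all). The median log2 fold change was 1.27 for the channel genes, 0.74 for all genes tested and 2.5 for the olfactory receptor genes, of which 37 rose and 1 fell among 738 tested.

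Each of the 4 genes stood within the range of the receptor genes in the tumor libraries. Kcna2 had 1185.4, 786.4 and 1329.7 normalized counts in RasV12 CD11b+ libraries and 71.3, 401.1 and 75.1 in control CD11b+ libraries (3.04 ± 0.69, adjusted p = 0.0254). Kcng1, a silent subunit gene, had 71.3, 426.4 and 127.9 against 4.7, 0.0 and 0.9, and Kcnh4, an ether-a-go-go-like channel gene, had 285.2, 553.8 and 93.7 against 8.6, 1.5 and 5.2 (adjusted p = 0.0300 and 0.0313). No group overlapped for these genes, and for Kcna2 control CD11b+ library 2, which has the highest receptor background of the control libraries, was the highest control value. After background subtraction none of the 4 passed (adjusted p = 0.308 to 1), none passed with edgeR, and 0 channel genes passed without control CD11b+ library 1 or 3. Of all 29835 genes tested, 1599 were called in the main fit and 2934 after background subtraction. EdgeR called 434 of them, and 373 and 382 were called without control CD11b+ library 1 and 3, so that calls were few in the whole table too.

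None of the 11 tested Kcnk genes passed by limma in this comparison, and 6 had an unadjusted p under 0.05, a threshold for which the share of all genes was not taken. Their median log2 fold change was 0.67, and libraries did not overlap for 3 on the higher and 3 on the lower side. The lower 3 were the leak channel genes read most in control phagocytes. Kcnk13 had 0.0, 138.5 and 74.5 normalized counts in RasV12 CD11b+ libraries against 2409.7, 586.7 and 2198.0 in control CD11b+ libraries, with no overlap (log2 fold change -6.06 ± 1.70, adjusted p = 0.0554). It passed with DESeq2 (adjusted p = 0.00900), after upper-quartile rescaling (0.0348), after quantile normalization (0.00720), after background subtraction (0.00484) and without control CD11b+ library 2 (0.0427), and not with edgeR (0.0746) or without RasV12 CD11b+ libraries 1 and 2 (0.222). Kcnk12 had 0.0, 44.3 and 2.4 against 178.7, 46.4 and 424.2 (-4.84 ± 1.36, adjusted p = 0.0550). Kcnk6 had 1483.9, 648.0 and 954.3 against 5714.5, 1833.6 and 8114.5, a 5.08-fold lower mean with no overlap (-2.18 ± 0.95, adjusted p = 0.166). Kcnk6 passed with DESeq2 (adjusted p = 0.0292). It did not pass with edgeR (0.0559), background subtraction (0.0516), upper-quartile rescaling (0.0947) or quantile normalization (0.192). In RasV12 CD11b+ libraries 1 and 2 a single read was worth 4.456 and 5.538 normalized counts, so that low values there are coarse. Microglia and macrophage markers had a summed FPKM of 7681 to 23757 in control and 2338 to 4134 in RasV12 CD11b+ libraries. Their median log2 fold change was -2.17 over 14 tested markers, of which 0 passed as higher and 0 as lower. The part of these markers' cells in the channel values was not tested.

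Among partner subunits 2 of 22 fell in RasV12 CD11b+ cells, Kcnip1 and Amigo1, and among potassium transporters and cation channels 2 of 15 fell, the sodium pump subunit genes Atp1b2 and Atp1b3. Atp1b3 went from a mean of 4852 to 1199 normalized counts (-1.81 ± 0.44, adjusted p = 0.0339).

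The effect of RasV12 differed between GFP+ and CD11b+ cells for 6 channel genes, tested as the difference of the effects in the same limma fit, where 4.4% of all genes tested were called (2.06% higher and 2.34% lower). Kcnj4 and Kcna3 had the more positive effect in GFP+ cells, with differences of -8.24 ± 1.42 and -6.21 ± 1.41 on the log2 scale (adjusted p = 0.00674 and 0.0249). Kcna2 and Kcna1 were among the 4 with the more positive effect in CD11b+ cells. By limma Kcna2 fell in GFP+ cells and rose in CD11b+ cells, a difference of 6.74 ± 0.97 (adjusted p = 0.00244). Its values in tumor CD11b+ cells stood within the range of the receptor genes. The difference for Kcnj4 passed under all 23 alternatives run, and that for Kcna2 under all but background subtraction (adjusted p = 0.144).

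**Figure D5:**
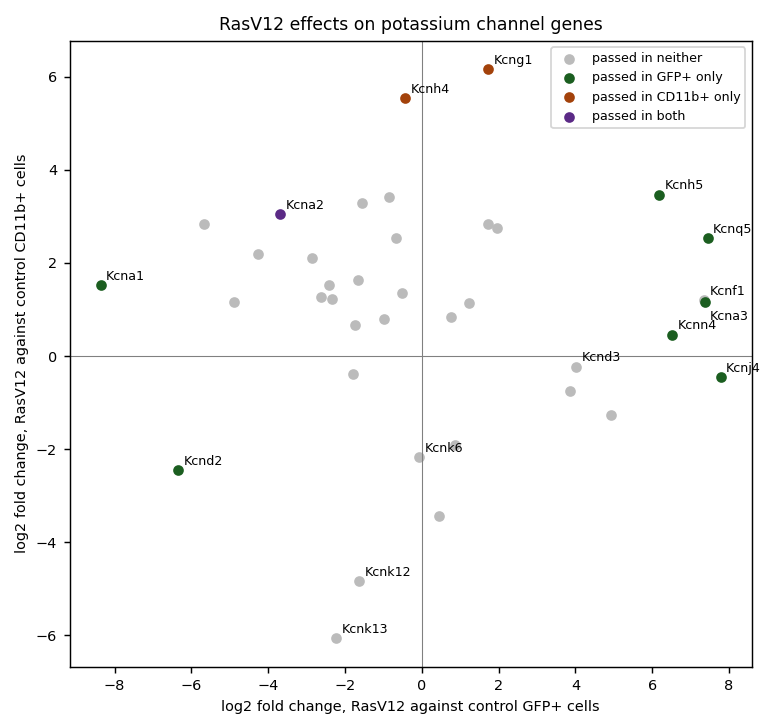
Log2 fold change of the 38 tested channel genes named in the text between RasV12 and control cells, in GFP+ cells (horizontal) and in CD11b+ cells (vertical), 1 point per gene, coloured by which of the 2 tests it passed. Kcna2 lies at the upper left, at -3.69 and 3.04, and Kcnj4 lies far right near the horizontal axis at 7.78 and -0.46.

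Within RasV12 tumors, CD11b+ cells had 21 channel genes higher and 8 lower than GFP+ cells, where 40.1% of all genes tested were called (29.8% higher and 10.2% lower). Olfactory receptor genes moved strongly in this comparison, with 414 of 738 higher and 0 lower and a median log2 fold change of 4.81, against 1.81 for the channel genes and 1.79 for all genes. Libraries did not overlap for 24 channel genes on the higher and 8 on the lower side, where 36.0% and 14.8% of all genes did not (50.8% in all). Of the 21 higher channel genes, Kcnh8 alone was above the receptor genes' 95th percentile in any RasV12 CD11b+ library, in library 3 with 20.4 FPKM. After background subtraction 4 were higher (Kcnk6, Kcnh8, Kcnh7 and Kcnj8) and 14 lower. Kcnk6 had 1483.9, 648.0 and 954.3 normalized counts in CD11b+ and 0.0, 0.0 and 0.4 in GFP+ libraries (9.76 ± 0.95, adjusted p = 7.37e-05).

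The 8 lower genes included Kcnj4, Kcnk1, Kcnd3, Kcnc1, Kcnk3, Kcnq1 and Kcnn2. Kcnj4 had no read in RasV12 CD11b+ libraries and was at least 94.5-fold lower, counting the unread group as 3 reads. Kcnd3 had 98.0, 105.2 and 0.0 in CD11b+ and 2316.7, 3828.1 and 2945.9 in GFP+ libraries of the tumor (-7.08 ± 1.52, adjusted p = 0.00415). Kcnc1, a channel of fast-spiking neurons, had 4.5, 271.4 and 0.0 against 1094.7, 1971.4 and 1413.8 (-6.99 ± 1.54, adjusted p = 0.0047). Kcnn2 had 111.4, 2979.5 and 30 against 1820.4, 2785.9 and 2234.2, so that its groups overlapped through RasV12 CD11b+ library 2, and it lost its call without any 1 of RasV12 GFP+ 1 to 3 and RasV12 CD11b+ 1 and 3 (adjusted p = 0.0841 to 0.169).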

How the data were processed

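Messenger RNA of 12 libraries was measured by sequencing on a HiSeq3000, in 4 groups of 3. Sepazol was used for isolation, the SMARTer Universal Low Input kit for cDNA and Nextera XT for libraries, per the labels' protocols. These kits do not mark strand. Exons of 20 of the 73 channel genes overlap another gene, so that their reads may be shared. The tools named in the submitters' processing notes are HISAT2 2.1.0, DESeq2 1.20.0, Subread 1.6.2 with featureCounts, and bcl2fastq 2.17.1.14, and the build named is GRCm38.p6; their roles are not given. The authors deposited normalized counts per gene, treated here as a signal scaled per library, and FPKM values, both for 54547 genes. Each library's deposited values turned out to be multiples of the worth of 1 read (tolerance 0.05), from which read totals were taken. Coordinates are those of the GENCODE annotation of GRCm38.

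Groups were compared with limma-trend, version 3.58.1 in R 4.3.3, applied to log2(normalized count + 1) of the 29835 genes with at least 10 normalized counts in at least 3 libraries, with 1 mean per group over 12 libraries and Benjamini-Hochberg adjustment over all of them at 0.05. Log2 fold changes are on that scale and are given ± SE. Where libraries hold few or no reads they can be smaller or larger than those of DESeq2 on the recovered reads. Between RasV12 and control GFP+ cells, Kcnj4 had 7.78 by limma and 9.33 by DESeq2, and Kcnn4 had 6.53 and 5.05. A group without reads was set to 3 reads for a fold, and a fold against 1 to 3 reads is a ratio with an exact 95% interval. Intervals and floors cover counting error only. Alternatives were 2 other scalings, a pseudocount of 10, no filter and a filter of 50, the FPKM table, the 2 groups alone, the replicate block, edgeR 4.0.16 and DESeq2 1.42.0 on the recovered reads, subtraction of the level of olfactory receptor genes per length, and leaving out libraries. Named are the genes that passed in at least 1 comparison, of which the text gives values for a selection, and the highest gene of each subfamily above background in each group. The test was also run on simulated counts with known changes, drawn with the means and spread of these data, and the outcome is not given here. Members and lists were chosen with earlier results of these data known. Some genes are not reported here by name, while counts include them.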

Additional observations from a re-analysis of the deposited data

Results flagged for a closer look

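The effect of RasV12 differed between CD11b+ and GFP+ cells for 6 channel genes, of which 4 are given, by the test of the difference itself (limma, difference of effects, CD11b+ minus GFP+, n = 3 libraries in each of 4 groups). Kcna1 differed by 9.89 on the log2 scale (adjusted p = 0.0394), with effects of 1.52 in CD11b+ and -8.36 in GFP+ cells. The value for Kcna2 was 6.74 (adjusted p = 0.00244), from 3.04 and -3.69. In the other direction stood Kcnj4 with -8.24 (adjusted p = 0.00674), from -0.46 and 7.78, and Kcna3 with -6.21 (adjusted p = 0.0249), from 1.16 and 7.37. Of 23 alternatives, the call was lost in 15 for Kcna1 (adjusted p = 0.0113 to 0.429 over all), in 8 for Kcna3, in 1 for Kcna2 and in none for Kcnj4. Those for Kcna1 include edgeR (0.174), DESeq2 (0.0662) and 9 single-library omissions. After background subtraction Kcnj4 passed (adjusted p = 0.000108) and Kcna3, Kcna2 and Kcna1 did not (0.0682 to 0.429).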

How the results depend on the processing

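The number of channel genes called moved as follows, from 8 in GFP+ cells, 4 in CD11b+ cells, 29 between tumor populations, 20 between control populations and 6 for the difference of effects. Of all 29835 genes tested, the main fit called 2027, 1599, 11953, 7826 and 1312 in the same order. EdgeR called 3, 0, 9 and 12 channel genes in the first 4 comparisons, and 1122, 434, 4692 and 4613 of all genes. DESeq2 called 14 channel genes in GFP+ and 7 in CD11b+ cells, and 4907 and 2357 of all genes. Background subtraction called 5, 2 and 18 channel genes in the first 3, of which 2, 0 and 11 were among those called without it. Of all genes it called 1168, 2934 and 8789. In CD11b+ cells upper-quartile rescaling gave 7, a pseudocount of 10 gave 15, no filter 2 and the 2 groups alone 0. Of all genes these settings called 2116, 4736, 1084 (of 45618 tested without the filter) and 0, so that the numbers for channel genes moved with the whole table. Without RasV12 CD11b+ libraries 1 and 2, CD11b+ cells had 1 and tumor populations 14. Leaving out 1 library gave 5 to 10, 0 to 12, 22 to 27, 11 to 15 and 3 to 10 calls of channel genes. Of all genes it gave 1042 to 1762, 373 to 5248, 8118 to 12501, 5160 to 6491 and 578 to 2227. The lowest numbers of channel genes were without RasV12 GFP+ 2 in GFP+ cells, without control CD11b+ 1 or 3 in CD11b+ cells and without RasV12 GFP+ 1, RasV12 GFP+ 2 or control CD11b+ 3 for the difference of effects. The highest in the last 2, 12 and 10, were both without control CD11b+ 2, and without RasV12 CD11b+ 1 CD11b+ cells had 1. With the replicate block the counts were 9, 5, 30, 20 and 7, and Kcnk13 passed in CD11b+ cells (adjusted p = 0.0497). Libraries of the same number showed little shared deviation (correlations over genes of -0.029 to 0.090). With 3 libraries per group this cannot settle whether the numbers pair them, and the labels do not say so. Between tumor populations, background subtraction reversed Kcnj9 (-1.28), Kcng1 (-1.39), Kcna2 (-1.45), Kcna1 (-2.11), Kcnq3 (-4.18) and Kcnk9 (-1.54), none of which passed there (adjusted p = 0.102 to 0.772). Upper-quartile rescaling moved the 4 higher and 0 lower calls of CD11b+ cells to 4 and 3 and quantile normalization to 2 and 2, and the 21 and 8 of tumor populations became 12 and 12 under quantile normalization. For the difference of effects 4 and 2 became 4 and 3 and 4 and 1. Except for the subtraction, where its construction shows it, the cause of these moves was not tested. The low depth of RasV12 CD11b+ 1 and 2 limits the precision of low values there.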
